A study of Mus musculus with 8 samples.

Results

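The teneurin genes Tenm2, Tenm3 and Tenm4 were followed through a time course of 5-hydroxymethylcytosine (5hmC) in mouse embryonic stem cells. The members are the 3 genes themselves, and their data are the CpG calls inside their GRCm38 spans, which came to 2489 of the 1849087 calls of the series and to 3 of the 49997 genes of the gene table. All cells carried inactivated Tet1, Tet2 and Tet3 genes and a PiggyBac transposon with the catalytic domain of mouse TET3, switched on by doxycycline and linked to an mCherry reporter. They were grown with 50 µg/ml ascorbate. The groups were untreated cells (0 h, libraries A, B and C), cells given 1 µM doxycycline for 6 h (2 libraries, A and B) or for 12 h (3 libraries, A to C). All 8 libraries came from this single complemented line, in which only the catalytic domain of TET3 was supplied, from a transposon and not from its own locus. The labels do not say whether libraries of a group came from separate cultures, so p-values measure the spread between these libraries, which may be technical. Only genomic DNA was read, so neither the expression of the teneurins nor cell type markers could be examined here.

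TET enzymes oxidise 5-methylcytosine to 5hmC. In APOBEC-coupled epigenetic sequencing (ACE-seq), 5hmC is shielded by a sugar, while unmodified cytosine and 5-methylcytosine are deaminated. An undeaminated CpG call is therefore read as 5hmC plus assay background. The level of a gene is the percentage of its CpG calls that were undeaminated. Teneurins are large transmembrane adhesion proteins, best known from neurons, where their extracellular part binds latrophilins on the facing cell and, together with FLRT proteins, helps to match and build synapses. Tenm3 is known for the wiring of the visual system and the hippocampus, Tenm4 for myelination and Tenm2 for binding latrophilin at synapses. Their genes are among the longest of the mouse genome, with most of the span in introns.

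Tenm2 (gene ID 23964) spans chr11:36006656-37237053 on the minus strand, Tenm3 (23965) spans chr8:48225665-49522824 on the minus strand, and Tenm4 (23966) spans chr7:96171244-96911093 on the plus strand. The listed transcription starts are the places where a promoter would be read, so the RefSeq windows of 250 bases before to 50 after each start (GRCm38.p6) are shown with every CG dinucleotide, the site of a CpG call, in capitals. All 3 genes matched this table, Tenm4 with 2 starts.

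Tenm2, chr11:36944192-36944491, minus strand: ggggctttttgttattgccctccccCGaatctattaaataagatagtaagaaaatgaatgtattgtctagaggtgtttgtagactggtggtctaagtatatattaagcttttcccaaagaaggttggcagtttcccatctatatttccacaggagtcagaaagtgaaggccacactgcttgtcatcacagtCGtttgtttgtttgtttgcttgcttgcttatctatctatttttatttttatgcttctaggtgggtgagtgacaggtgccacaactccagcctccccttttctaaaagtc

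Tenm3, chr8:48674641-48674940, minus strand: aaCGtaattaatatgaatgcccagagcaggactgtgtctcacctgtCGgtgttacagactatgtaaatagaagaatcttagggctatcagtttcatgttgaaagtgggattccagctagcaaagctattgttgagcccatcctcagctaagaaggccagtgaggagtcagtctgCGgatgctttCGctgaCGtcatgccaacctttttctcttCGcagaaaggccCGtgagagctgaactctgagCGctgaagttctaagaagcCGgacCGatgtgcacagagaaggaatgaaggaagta

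Tenm4, first start, chr7:96170994-96171293, plus strand: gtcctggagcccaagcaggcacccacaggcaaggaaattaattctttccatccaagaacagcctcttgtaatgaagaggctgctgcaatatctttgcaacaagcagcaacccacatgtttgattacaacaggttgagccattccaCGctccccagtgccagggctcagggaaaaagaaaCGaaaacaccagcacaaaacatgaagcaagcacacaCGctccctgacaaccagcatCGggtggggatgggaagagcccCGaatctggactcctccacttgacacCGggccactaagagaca

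Tenm4, second start, chr7:96211421-96211720, plus strand: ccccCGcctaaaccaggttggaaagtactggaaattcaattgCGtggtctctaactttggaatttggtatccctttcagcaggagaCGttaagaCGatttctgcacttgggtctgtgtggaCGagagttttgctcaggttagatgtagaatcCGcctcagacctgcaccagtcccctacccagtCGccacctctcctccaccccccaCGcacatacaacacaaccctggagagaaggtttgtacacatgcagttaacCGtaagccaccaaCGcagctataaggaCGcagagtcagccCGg

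The windows hold 2, 10, 6 and 12 CG, searched as the letters CG, which read the same on both strands. At least as many were found in 85.9%, 43.5%, 56.4% and 39.6% of all promoter windows of the table, of which 94.6% hold at least 1. The starts of Tenm2 and Tenm3 lie 293 and 848 kb inside their spans, counted from the 5′ end of the span, and the second start of Tenm4 lies 40.4 kb inside. The windows of Tenm2 and Tenm4 had 0 calls in all 8 libraries. The window of Tenm3 had 5 calls, all deaminated and all on 1 read of untreated library A. Within 2 kb there were 10 calls at the second start of Tenm4, 2 at that of Tenm2 and 6 at that of Tenm3, including those in its window. Of these calls 0 were undeaminated. They were not split by time, so no change over time can be read from them. The data on the teneurins are therefore data on gene bodies, and no level could be given for these promoters.

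The gene bodies were read at 816 calls on 389 reads in Tenm2, 934 on 413 reads in Tenm3 and 739 on 358 reads in Tenm4. The 3 spans together held 76.2 calls per 100 kb, against a median of 39.7 (quartiles 23.5 and 62.8) in the 227 protein-coding genes of at least 500 kb. Those genes were not filtered by calls, while each member had 10 calls or more in every library. The fourth teneurin, Tenm1, which is not a member, had 7.43 calls per 100 kb. The density is thus no trait of the family. Reads rarely met at the same site: 12 of 800 positions in Tenm2, 46 of 879 in Tenm3 and 19 of 713 in Tenm4 were called in more than 1 library. Levels of a gene in different libraries are thus averages over largely different CpGs. Library depth ran from 75023 to 485941 calls, and the level over a whole library was 1.13% ± 0.199 (SD, n = 3) at 0 h, 6.42% ± 0.212 (n = 2) at 6 h and 24.1% ± 2.36 (n = 3) at 12 h. Intervals and limits below cover counting error only, and calls on 1 read are not independent of each other.

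In untreated cells nearly all calls in the teneurin bodies were deaminated. Of 507 calls at 0 h, 1 was undeaminated, which is 0.197% (exact 95% binomial interval 0.00499 to 1.09%), where 5.29 would be expected from the libraries' own levels in reads with as many CpGs. That call lay in Tenm3, in library A. Tenm2 had 0 of 136 calls, which allows a level of up to 2.21%, and Tenm4 had 0 of 159, which allows up to 1.89%.

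After 12 h of doxycycline all 3 genes had risen to between 21.7 and 39.7% of their CpG calls. In Tenm2, whose protein binds latrophilin, 39 of 148 calls were undeaminated in library A (26.4%), 62 of 279 in B (22.2%) and 24 of 75 in C (32.0%). In Tenm3 the numbers were 70 of 241 in A (29.0%), 71 of 241 in B (29.5%) and 18 of 83 in C (21.7%). In Tenm4 they were 51 of 205 in A (24.9%), 45 of 189 in B (23.8%) and 23 of 58 in C (39.7%). Every 12 h library lay above every untreated library in each of the genes, as it did in 98% of the 346 genes that each library covered with 10 calls or more (the tested genes). Library C, the shallowest at 12 h, was the highest of the group in Tenm2 and Tenm4 and the lowest in Tenm3. It was also the highest over the whole library, at 26.8% against 22.3% in A and 23.3% in B.

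The group means at 12 h were 26.9% ± 4.91 for Tenm2, 26.7% ± 4.37 for Tenm3 and 29.4% ± 8.86 for Tenm4 (SD, n = 3 libraries each). The rise over 0 h was fitted with limma over the 346 genes, with libraries weighted by their calls. It was 24.8 percentage points ± 2.17 (SE) for Tenm2, with a Benjamini-Hochberg adjusted p of 3.04e-06 in limma. For Tenm3 the rise was 27.7 ± 1.78 points (limma adjusted p = 1.92e-06), and for Tenm4 it was 26.2 ± 2.31 points (limma adjusted p = 3.04e-06). These calls say little about the teneurins in particular, since 98.8% of the tested genes rose by the same test. In the order of all 346 rises they stood at ranks 54 (Tenm3), 98 (Tenm4) and 132 (Tenm2) from the top. All genes of a library share its rise, so these errors and p-values may be too small. The two-sided exact permutation test of 3 libraries against 3 gave p = 0.1 for each gene, the smallest it allows.

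**Figure D1:**
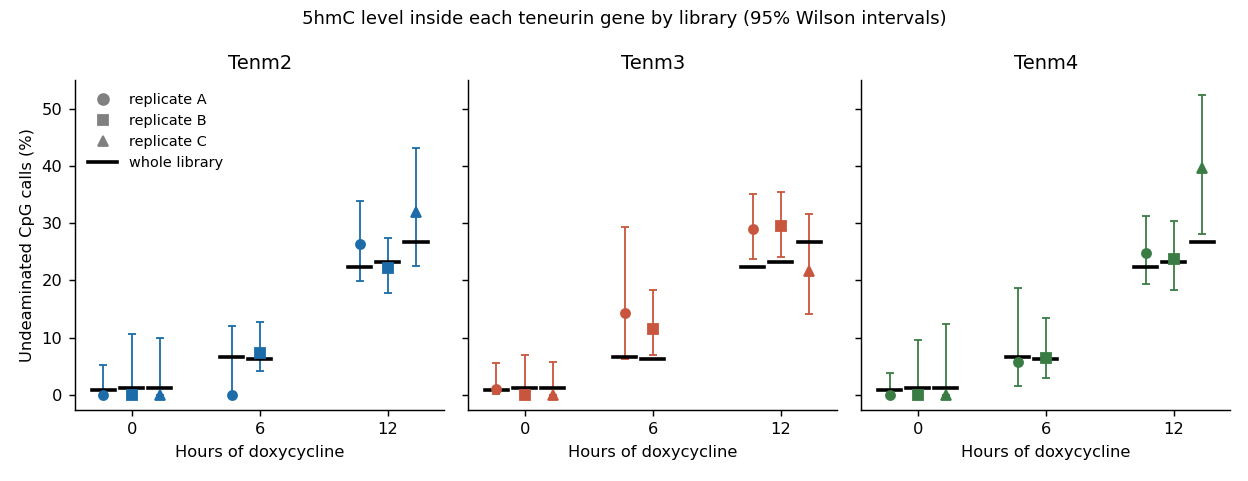
Level of each teneurin gene in each of the 8 libraries, as the percentage of CpG calls undeaminated against hours of doxycycline. Points are libraries with 95% Wilson intervals, shapes are replicate letters and black bars are the level of the whole library. The untreated libraries lie between 0 and 1.02%, and the 12 h libraries between 21.7 and 39.7% in the single genes.

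Whether the members differed from one another in their rise to 12 h could not be decided by the tests. Here the members were compared within each library, with every library counted equally and not weighted by calls as in the limma fit. From 0 to 12 h the plain group means rose by 26.9 points in Tenm2, 26.4 in Tenm3 and 29.4 in Tenm4, an order that differs from that of the weighted rises. On this scale the rise of Tenm2 minus that of Tenm3 was 0.467 points, Tenm2 minus Tenm4 was -2.59 points and Tenm3 minus Tenm4 was -3.06 points. Within the 12 h libraries the difference between Tenm3 and Tenm4 ran from -18.0 to 5.65 points (SD 13.2, n = 3), and that between Tenm2 and Tenm3 from -7.24 to 10.3 points (SD 9.11, n = 3). The two-sided exact permutation tests gave p = 1, 0.4 and 1, and 1 for each after adjustment over the 3 pairs. Those p-values do not show that the genes gained alike. Without 12 h library C, Tenm2 minus Tenm3 turned to -4.63 points and Tenm3 minus Tenm4 to 4.57 points.

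At 6 h Tenm3 stood above its sister genes. In Tenm3, 5 of 35 calls were undeaminated in library A (14.3%) and 14 of 122 in B (11.5%), a mean of 12.9% ± 1.99 (SD, n = 2). In Tenm4 it was 2 of 35 in A (5.71%) and 6 of 93 in B (6.45%). Tenm2 had 0 of 28 in A, which allows up to 10.7%, and 11 of 150 in B (7.33%). Both 6 h libraries lay above every untreated library in Tenm3 and Tenm4 but not in Tenm2, where library A overlapped them. Such a separation was found in 48.3% of the tested genes.

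Tenm3 was the member whose 6 h rise passed the test, at 11.5 ± 1.93 points (SE, limma adjusted p = 0.0367), among the 6.36% of genes that passed. The call ended without untreated library B (11.4 points, adjusted p = 0.0543), without untreated C (11.3, adjusted p = 0.0580) and without 6 h library B (13.7, adjusted p = 0.168), each in limma. The rises of Tenm2 (6.22 ± 2.11 points, limma adjusted p = 0.0811) and Tenm4 (6.26 ± 2.48 points, limma adjusted p = 0.120) did not pass. Without 6 h library B the rise of Tenm2 was 0. The exact permutation tests of 2 libraries against 3, which cannot go below p = 0.2, gave 0.2 for Tenm3, 0.2 for Tenm4 and 0.8 for Tenm2. Whether Tenm3 differed from the other members at 6 h was not tested. Against the library level the 6 h excess of Tenm3 was 6.25 ± 2.20 points, which did not pass over all genes (limma adjusted p = 0.651), nor did the 5.75 ± 2.26 points found against the libraries' level in reads with as many CpGs (limma adjusted p = 0.672). By either measure 0% of tested genes passed at 6 h, and 6.65 and 6.36% had an unadjusted p under 0.05.

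From 6 to 12 h each member rose again, as 91.6% of tested genes did. The step was 18.6 ± 2.74 points for Tenm2, 16.2 ± 2.45 for Tenm3 and 19.9 ± 3.17 for Tenm4 (SE, limma adjusted p = 0.000371, 0.000399 and 0.000447). No 12 h library overlapped a 6 h library in any of the 3 genes, a separation seen in 90.2% of tested genes.

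Set against the library as a whole, the estimates for the teneurins lay above 0, as did those of 59.0% of tested genes. None of the 3 passed the test. The rise minus the library's rise was 2.38 ± 2.05 points in Tenm2, 5.40 ± 2.04 in Tenm3 and 3.91 ± 2.02 in Tenm4 (SE, limma adjusted p = 0.642, 0.242 and 0.419). Of all tested genes, 0.578% passed as higher and 1.45% as lower by this measure. The level of a read also depends on how many CpGs it holds, so each gene was compared with the libraries' own level in reads of the same number of CpGs. That left an excess of 1.25 ± 1.90 points for Tenm2, 4.29 ± 2.09 for Tenm3 and 2.69 ± 1.90 for Tenm4 (SE, limma adjusted p = 0.851, 0.422 and 0.629), where 0.578% of genes passed as higher and 0.289% as lower. An excess above 0 at equal CpGs per read was found in 54.9% of tested genes. This excess is a change from 0 h, so a level below expectation at 0 h adds to it. At 0 h the undeaminated calls were 0 (1.44 expected) in Tenm2, 1 (2.24) in Tenm3 and 0 (1.61) in Tenm4. At 12 h they were 125 (123.8 expected), 159 (138.4) and 119 (110.8) in the same order. The estimates for the teneurins moved with single 12 h libraries. For Tenm2 the excess at equal CpGs per read was 0.280 points without library A, 3.71 without B and 0.760 without C, and the excess over the library was 1.19 without A and 5.44 without B. For Tenm3 the excess at equal CpGs was 2.37 points without A. For Tenm4 it was 4.26 without B and 1.43 without C, and over the library it was 2.60 without C.

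The excess of Tenm3 rested on libraries A and B. They lay 6.28 and 4.64 points above the level expected at equal CpGs per read, while library C stood at -6.83 points against it. With equal weights for all libraries its excess over 0 h was 2.13 points, and with only the first listed call of each read it was 0.249 points. In Tenm4 library C stood 11.2 points above expectation, against 1.30 in A and -0.507 in B. In Tenm2 the values were 2.42, -1.74 and 3.29 points.

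**Figure D2:**
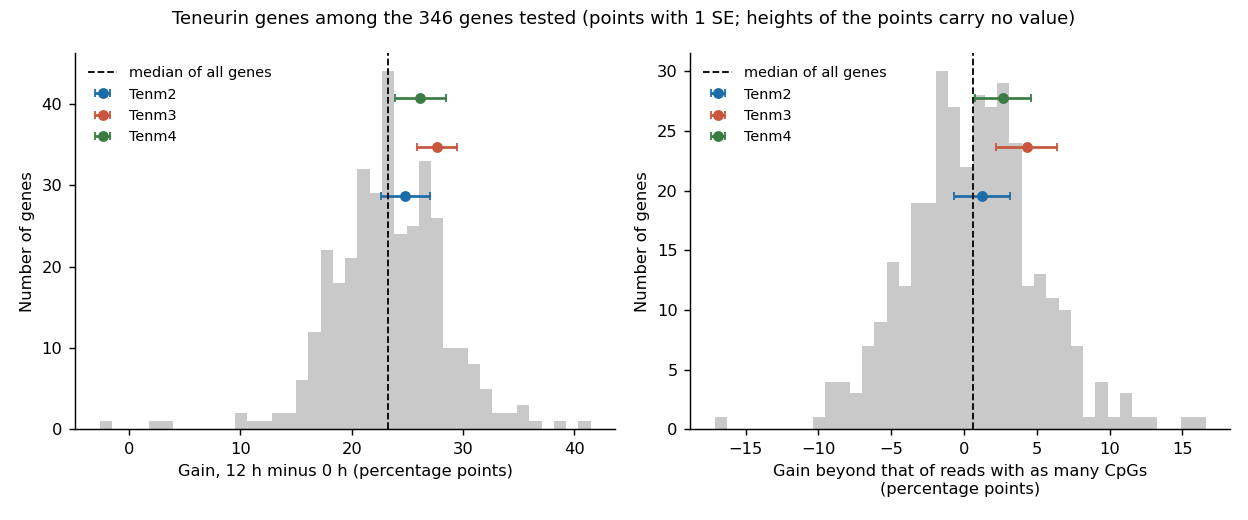
Histograms of the 346 tested genes by their rise from 0 to 12 h (left) and by their rise beyond that of reads with as many CpGs (right), in percentage points. Coloured points are the 3 teneurins with 1 SE, at heights that carry no value, and dashed lines are medians of all tested genes. The teneurins, at 24.8 to 27.7 points on the left, lie above the median of 23.3 and inside the body of the distribution.

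The medians of the long genes were lower than those of all tested genes. The median rise was 23.3 points over all 346 tested genes, 21.7 over the 107 others of at least 500 kb and 26.2 over the 3 teneurins. At equal CpGs per read the medians of the excess were 0.621, -1.29 and 2.69 points in the same order. An excess above 0 was found in 190 of the 346 tested genes (54.9%) and in 38 of the 107 long genes (35.5%). This is a description of 3 genes chosen with earlier results known, and it carries no test.

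The 3 spans summed gave 26.9, 25.1 and 30.1% in 12 h libraries A, B and C, a mean of 27.4% ± 2.52 (SD, n = 3), where 25.4% was expected at equal CpGs per read. All 3 libraries lay above expectation, by 3.60, 0.758 and 1.52 points. At 6 h, 38 of 463 calls were undeaminated, a mean of 7.82% ± 0.955 (SD, n = 2). The libraries were sequenced in 3 runs named by the read names. Within them the summed level averaged 34.5, 25.1 and 29.2% at 12 h, 3.85, 6.14 and 9.47% at 6 h and 0, 0 and 0.251% at 0 h, so that each run showed the same order of the times. The first run held 107 of the 1519 teneurin calls at 12 h.

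Calls were not spread evenly along the genes. Each span was cut into 4 parts of equal length, numbered 1 to 4 from the 5′ end. They held 13.8, 16.5, 27.4 and 42.3% of all teneurin calls. In Tenm2 the density rose from 38.4 to 127 calls per 100 kb between part 1 and part 4, in Tenm3 from 24.7 to 122 and in Tenm4 from 78.9 to 143. Levels of a whole gene are therefore weighted towards its 3′ part. The 5′ end here is that of the span. The listed start of Tenm2 lies further in, within part 1, and that of Tenm3 within part 3. Parts 1 and 2 of Tenm3 thus lie before its listed start.

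Part 4 of Tenm3, its 3′ end, was the stretch of the teneurins with the largest tested excess. At 12 h, 79 of its 237 calls were undeaminated (33.3%), with 33.7, 35.4 and 27.5% in libraries A, B and C, where 23.9% was expected at equal CpGs per read. At 6 h it had 11 of 72 (15.3%, expected 6.79%) and at 0 h 0 of 88, which allows up to 3.41%. The excess over 0 h was 10.7 ± 2.47 points (SE, unadjusted p = 0.00263), which did not pass after adjustment over 461 such parts of tested genes (limma adjusted p = 0.117). None of the 461 passed (0%), and 13.2% had an unadjusted p under 0.05. Without 12 h library C it passed, with a limma adjusted p of 0.0341, as the 1 teneurin stretch among the 21 of 461 parts (4.56%) that passed in that fit.

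Parts 1 to 3 of Tenm3 stood at 33.3% (17 of 51), 23.4% (22 of 94) and 22.4% (41 of 183). Part 1 rests on 51 calls and has an exact 95% interval of 20.8 to 47.9%. In Tenm2 parts 1 to 4 stood at 17.2% (11 of 64), 28.9% (22 of 76), 20.3% (26 of 128) and 28.2% (66 of 234). In Tenm4 they stood at 29.2% (21 of 72), 18.3% (17 of 93), 32.3% (41 of 127) and 25% (40 of 160). The order of the parts differed between the genes. Of the 12 parts, 6 had at least 3 calls in every library and were tested. Besides part 4 of Tenm3, part 4 of Tenm2 had an unadjusted p under 0.05, with an excess of 4.06 ± 1.69 points (SE, limma adjusted p = 0.352).

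**Figure D3:**
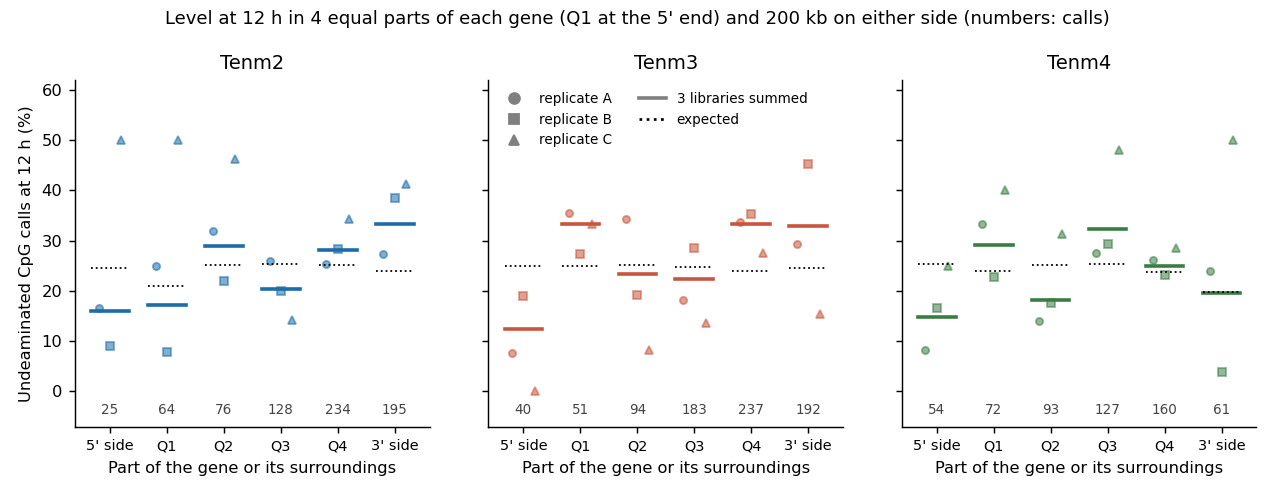
Level at 12 h in the 4 equal parts of each gene (Q1 at the 5′ end, Q4 at the 3′ end) and in 200 kb on either side. Points are the 3 libraries, thick bars the libraries summed, dotted lines the level expected at equal CpGs per read, and the numbers are calls. By the summed levels, the 3′ sides of Tenm2 and Tenm3 (33.3 and 32.8%) stand above their dotted lines and all 5′ sides below. Parts 1 and 4 of Tenm3 (33.3% each), 2 and 4 of Tenm2 and 1, 3 and 4 of Tenm4 also stand above. The other parts stand below. On the 5′ side of Tenm2 replicate C, at 50.0%, lies above the line. On the 3′ side of Tenm3 replicate C, at 15.4%, lies below it.

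The regions beside the genes were described without a test. In the 200 kb beyond the 3′ end, 65 of 195 calls were undeaminated at 12 h beside Tenm2 (33.3%, expected 23.9%) and 63 of 192 beside Tenm3 (32.8%, expected 24.5%). Beside Tenm4 it was 12 of 61 (19.7%, expected 19.8%). Beyond the 5′ end the summed levels were 4 of 25 (16%) for Tenm2, 5 of 40 (12.5%) for Tenm3 and 8 of 54 (14.8%) for Tenm4, where 24.6 to 25.4% was expected. These flanks hold few calls, and the means over the 3 libraries differ from the summed levels. The 5′ side of Tenm2 stood at 16.7, 9.09 and 50.0% in libraries A, B and C, a mean of 25.3% ± 21.8 (SD, n = 3), which is above its expected level. The 5′ sides of Tenm3 and Tenm4 had means of 8.91% ± 9.58 and 16.7% ± 8.33. The 3′ sides of Tenm2 and Tenm4 had means of 35.7% ± 7.33 and 25.9% ± 23.1 (SD, n = 3 each), and that of Tenm3 stood at 29.4, 45.3 and 15.4% in libraries A, B and C.

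In steps of 100 kb the level of Tenm3 was uneven. Between 600 and 700 kb from its 5′ end 1 of 32 calls on 15 reads was undeaminated at 12 h (3.13%, expected 25.4%), between 300 and 400 kb it was 12 of 24 (50.0%), and between 1100 and 1200 kb 31 of 80 (38.8%). In Tenm4 the lowest step, 300 to 400 kb, had 6 of 47 (12.8%). In Tenm2 the lowest was the first 100 kb with 4 of 36 (11.1%, expected 18.0%), which includes a read of 13 CpGs, all deaminated. These steps were picked after their values were seen and carry no test.

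**Figure D4:**
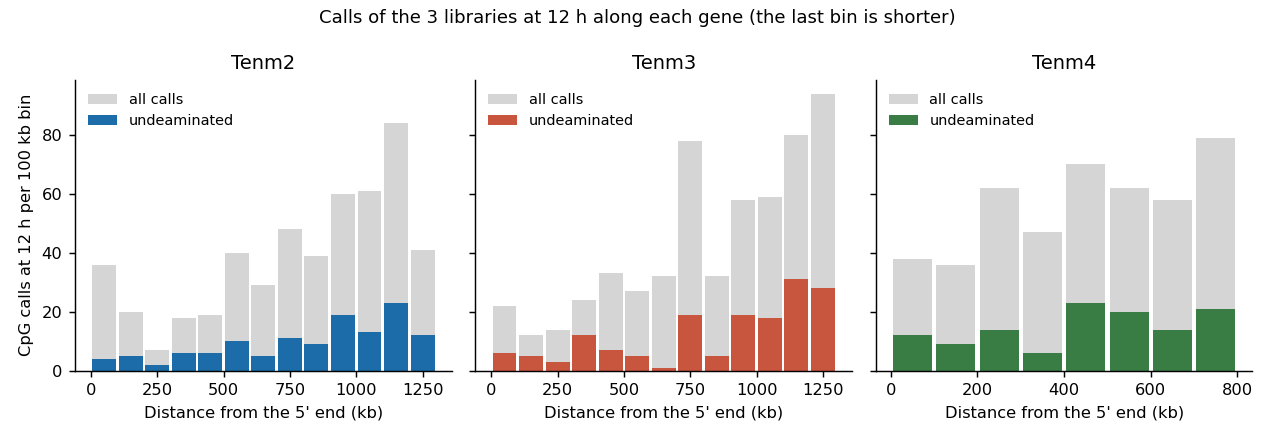
CpG calls of the 3 libraries at 12 h in successive 100 kb of each gene against the distance from its 5′ end, with the last step shorter. Grey bars are all calls and coloured bars the undeaminated ones. Calls grow in number towards the 3′ end, and the step of Tenm3 at 600 to 700 kb holds 1 undeaminated call of 32.

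Within 5 kb of the ends of the spans, 12 of 31 calls on 5 reads were undeaminated at the 3′ end of Tenm3 at 12 h. The 5′ end of Tenm2 had 0 of 16 on 3 reads, and the 3′ end of Tenm4 had 1 of 11. Such counts come from a handful of molecules.

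Most teneurin reads held few CpGs. Reads with 11 or more CpGs gave 1.08% of teneurin calls, against 7.41% of all calls, and these are the reads on which the libraries' own levels were low (5.28% expected at 12 h). In reads with 1 CpG, 80 of 321 teneurin calls were undeaminated at 12 h (24.9%, expected 24.3%), and in reads with 2 it was 99 of 358 (27.7%, expected 25.4%). Reads with 3 gave 74 of 312 (23.7%, expected 25.8%), reads with 4 or 5 gave 97 of 329 (29.5%, expected 25.8%) and reads with 6 or 7 gave 38 of 127 (29.9%, expected 23.5%). Reads with 8 to 10 gave 10 of 45 on 5 reads (22.2%, expected 16.7%). The teneurin level was above the libraries' in 6 of the 7 classes, though little in reads with 1 CpG, and below it in reads with 3 CpGs. In the 2 reads of 11 or more CpGs, 5 of 27 calls were undeaminated (18.5%, exact 95% interval 6.30 to 38.1%). All 5 came from 1 read of 14 CpGs in Tenm3.

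**Figure D5:**
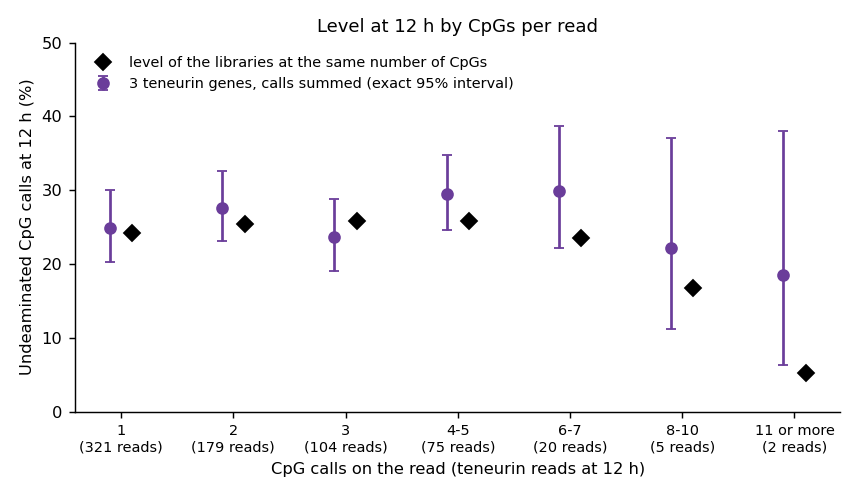
Level of the 3 teneurin genes summed at 12 h against the number of CpG calls on the read, with exact 95% intervals, as purple points. Black diamonds are the level of the libraries in reads with as many CpGs. The libraries' level falls from 24.3% in reads with 1 CpG to 5.28% in reads with 11 or more, a class in which the teneurins have 27 calls.

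Few single molecules were undeaminated at every CpG. Of 385 teneurin reads with at least 2 CpGs at 12 h, 187 had no undeaminated call (48.6%), 173 had some (44.9%) and 25 had all (6.49%). Over all reads of the 12 h libraries the shares were 52.5, 40.7 and 6.79%. In Tenm3 66 of 145 such reads had none (45.5%), in Tenm4 51 of 109 (46.8%) and in Tenm2 70 of 131 (53.4%). With the first listed call of each read alone the 12 h levels were 28.8% ± 7.29 for Tenm2, 24.5% ± 3.29 for Tenm3 and 27.7% ± 8.56 for Tenm4 (SD, n = 3), beside 25.4% for the whole libraries. By this measure Tenm3 was the lowest of the 3 genes and lay below the library level.

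Undeaminated calls lay on both strands. At 12 h, calls on the strand of the gene were undeaminated in 44 of 182 cases in Tenm2 (24.2%) and calls on the opposite strand in 47 of 207 (22.7%). The values were 73 of 261 (28.0%) and 60 of 201 (29.9%) in Tenm3, and 47 of 167 (28.1%) and 52 of 180 (28.9%) in Tenm4. The means over the 3 libraries, for the gene's strand and the opposite one, were 23.5% ± 8.74 and 24.8% ± 7.37 in Tenm2, 23.6% ± 11.4 and 30.1% ± 5.02 in Tenm3, and 32.5% ± 13.4 and 31.3% ± 6.63 in Tenm4 (SD, n = 3). In Tenm2 and Tenm4 the sign of the difference turned between the summed levels and the means, and in no gene did the means differ by more than the larger SD. The strand could be read only for reads with at least 2 calls, and the difference was not tested.

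The fourth teneurin and the known partners of the family were sampled too thinly for the same test: 0 of 11 genes had 10 calls in every library. Tenm1, on the X chromosome, had 7.43 calls per 100 kb, and 8 of its 41 calls were undeaminated at 12 h (19.5%). Among the latrophilins, adhesion receptors that bind teneurins, the 12 h levels were 19 of 58 calls in Adgrl1 (32.8%), 40 of 122 in Adgrl2 (32.8%) and 17 of 97 in Adgrl3 (17.5%). The FLRT adhesion proteins, which bind latrophilins, had 22 of 93 in Flrt1 (23.7%), 3 of 28 in Flrt2 (10.7%) and 3 of 9 in Flrt3. Flrt1 and Flrt3 lie inside other genes, Macrod1 and Macrod2, so their calls belong to both. The UNC5 netrin receptors, which bind FLRT proteins, had 18 of 90 in Unc5a (20.0%), 28 of 114 in Unc5b (24.6%), 21 of 75 in Unc5c (28.0%) and 19 of 99 in Unc5d (19.2%).

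Summed over these 11 genes the level was 0 of 259 calls at 0 h, 10.0% ± 2.45 (SD, n = 2) at 6 h and 23.7% ± 2.01 (SD, n = 3) at 12 h. At equal CpGs per read 6.27% was expected at 6 h and 24.4% at 12 h. No gene of the list was tested against the library level.

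Other genes lie within or across the teneurin spans, mostly long noncoding RNAs, and their calls are part of the teneurin values. Tenm2 holds 7 of them, Tenm3 5 and Tenm4 6, among which the microRNA genes Mir708 and Mir6394 in Tenm4 had 0 calls. In part 4 of Tenm3 the noncoding gene Gm51531 had 12 of 23 calls undeaminated at 12 h (52.2%). Nearer the 5′ end of Tenm3, in part 3, Gm19744 had 0 of 11. At the 3′ end of Tenm2, Gm42072 had 12 of 32 (37.5%), and Gm33585, in part 3 of Tenm2, had 6 of 31 (19.4%). 4930555F03Rik, across the 5′ end of Tenm3, had 8 of 29 (27.6%).

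Over the 8 libraries, the tested genes with levels closest to Tenm2 were Tmcc3 and Prdm16, at a root mean square difference of 1.17 and 1.73 points, where the median over 343 genes was 5.72. Tmcc3 had 28.6, 21.3 and 31.0% at 12 h. For Tenm3 they were Ttc28 (2.27 points) and Tln2 (2.36 points, median 6.95), of which Ttc28 had 25.2, 30.5 and 22.9% at 12 h. For Tenm4 they were Ntrk2 (0.877 points) and Arid1b (1.27 points, median 6.55). Ntrk2, the receptor for the neurotrophin BDNF, had 24.3, 25.2 and 38.2% at 12 h. Since these genes were picked by their levels in the same libraries, a shared high library C was part of the choice. The members themselves were 3.48 points apart for Tenm2 and Tenm4, 6.97 for Tenm2 and Tenm3 and 7.68 for Tenm3 and Tenm4. By this measure Tenm3 was no closer to its sister genes than to the median tested gene. The measure counts all libraries equally, also those with few calls. In 6 h library A, 0 of 28 calls in Tenm2 and 5 of 35 in Tenm3 were undeaminated. In 12 h library C it was 18 of 83 in Tenm3 and 23 of 58 in Tenm4.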

How the data were processed

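CpG calls of 8 ACE-seq libraries of mouse embryonic stem cells were used (3 at 0 h, 2 at 6 h, 3 at 12 h), with 75023 to 485941 calls each. The deposited values are call letters made by the authors, 1 line per CpG and read, from the Bismark methylation extractor 0.22.3, per the file headers. The submitters' processing notes also name Trim Galore and GRCm38. Settings for trimming, alignment and duplicate removal are not given in these sources. Per the labels' protocols the libraries were sequenced over 3 runs. No read name was shared between libraries.

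Spans came from a GRCm38.p6 gene table and strands from the RefSeq promoter table, so the 4 equal parts of a gene run 5′ to 3′. Of the calls inside promoter windows, 99.9% lay on a CpG of the window's sequence. Strand of a read was taken from the order of its calls. Levels (percent undeaminated), levels minus the library's level and levels minus that expected in 7 classes of CpGs per read were fitted with limma 3.58.1 in R 4.3.3 over the 346 genes in which each library had 10 calls or more: 1 factor of 3 groups, weights of calls over binomial variance, Benjamini-Hochberg adjustment, threshold 0.05. Parts needed 3 calls in every library. The scripts were tested on simulated data. For limma these calls were drawn independently of each other, unlike calls on 1 read, so that test does not cover this dependence. A limit for a count of 0 is 3 counts.

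The members and lists were chosen with earlier results of these data known. Named genes are the members, Tenm1, 10 latrophilin, FLRT and UNC5 genes, genes inside the spans and the 2 genes per member with the smallest root mean square difference. The steps of 100 kb, the span ends, the strands, the promoters and the genes of at least 500 kb were described after the data had been seen. Alternatives left out each library and changed weights, minimum calls, classes, reads and runs.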

Additional observations from a re-analysis of the deposited data

How the results depend on the processing

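The 12 h rises of the 3 genes kept direction and passed in every limma alternative, with 23.7 to 28.1 points for Tenm2, 26.8 to 28.7 for Tenm3 and 24.4 to 27.8 for Tenm4 when libraries were left out in turn. A quasi-binomial fit gave Tenm3 a log odds change of 4.41 (adjusted p = 0.0485) and could not be fitted for Tenm2 and Tenm4, which had 0 undeaminated calls at 0 h. Their excess at 12 h passed under none of the alternatives run. With libraries left out it ran over the library from 1.19 to 5.44 points in Tenm2, 3.96 to 6.95 in Tenm3 and 2.60 to 5.63 in Tenm4, and at equal CpGs from 0.280 to 3.71, 2.37 to 5.94 and 1.43 to 4.26. The 6 h rise of Tenm3 ran from 10.9 to 13.7 points when libraries were left out, and did not pass without untreated B, untreated C or 6 h B. It also did not pass with equal weights (12.5, limma adjusted p = 0.240), at least 5 calls (11.5, adjusted p = 0.0519) or 1 call per read (10.6, adjusted p = 0.132). The number of genes passing at 6 h, 22 of 346, was 0 with equal weights, 1 of 1028 with at least 5 calls, 4 with 1 call per read and 0 to 22 with libraries left out. At 12 h against 6 h it was 317, and 168 without 6 h library B. The quasi-binomial fit passed 70 of 178 genes at 12 h against 342 of 346. With the genes tested also changing, those passing on the excess at 12 h numbered 7 over the library and 0 to 11 over the alternatives, and 3 at equal CpGs with 0 to 6. The 6 h rise of Tenm2 ran from 0 to 7.33 points, with 0 when 6 h library B was left out. The 6 h excess of Tenm2 ran from -5.52 to 2.11 over the library and from -5.91 to 1.74 at equal CpGs with libraries left out, negative without 6 h B, and turned to -1.62 and -1.99 with equal weights and to -0.667 and -0.767 with 1 call per read. That of Tenm4 at equal CpGs ran from -0.398, without 6 h B, to 0.718. The summed 12 h level was 34.5% within the first run. The summed 6 h level was 9.19% with 1 call per read and 3.85, 6.14 and 9.47% within the runs. With libraries left out, Tenm2 minus Tenm3 ran from -4.63 to 4.15 points, Tenm3 minus Tenm4 from -7.24 to 4.57 and the teneurin parts passing from 0 to 1, among 0 to 21 of all 461 parts. The cause of these changes was not tested. No pairing by replicate letter was detected. Same-letter libraries correlated at -0.146 to 0.0161, and 0 of 8 libraries correlated best with their own letter. Levels near 0 at 0 h, only 2 libraries at 6 h and largely different CpGs per library mean that a pairing could go unseen. With the replicate block the 12 h rises were 24.9, 27.7 and 26.3 points and the 6 h rise of Tenm3 11.6 (limma adjusted p = 0.00743), with 344 and 16 genes passing as higher. No call on a member changed under the block. Depth was lowest in Tenm4 in untreated C, with 27 calls.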
